A study of Arabidopsis thaliana with 12 samples.

Results

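The genes described here encode TIR-class immune receptors of Arabidopsis thaliana, proteins that carry a Toll/interleukin-1 receptor (TIR) domain. They were chosen by locus number from a list of 60 TIR, TIR-NBS and TIR-NBS-LRR genes, and the members were chosen with earlier results of these data known. Of these, 48 had a probe set that the array annotation assigns to a single gene, out of 13356 genes measured in this way. A further 4 loci shared 2 probe sets in pairs and are given separately, and 8 were not analysed here. None of the 48 probe sets carried the suffix that marks probes matching several transcripts, and each of the 48 genes had 1 probe set. All 48 entered the tests without a filter on low signal. By locus number, 23 lie on chromosome 1, 6 on chromosome 2, 7 on chromosome 3, 2 on chromosome 4 and 10 on chromosome 5.

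TIR domains act as enzymes that consume the cofactor NAD+ when a pathogen is perceived or when the receptor is set off by itself. The products are small molecules bound by EDS1, a lipase-like protein that pairs with PAD4 or SAG101 and then engages helper receptors, which leads to salicylic acid accumulation and cell death. Full-length members join the TIR domain to a nucleotide-binding domain (NBS) and to leucine-rich repeats (LRR) that sense or guard other proteins, whereas short members lack the repeats and hold the TIR domain alone or with the NBS. Transcripts of many such genes rise during immune responses, which makes the family both a part and a readout of the immune state.

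Seedlings of the Columbia accession (Col-0) were either wild type or amiR-SNF4, a line with an estradiol-inducible artificial microRNA against SNF4, the activator subunit of the energy-sensing kinase SnRK1. All 4 groups, the wild type included, received 5 µM β-estradiol on medium with 0.5% sucrose at 22 °C, and were grown in darkness or in light. For every group, the dark-grown ones included, the labels give a cycle of 8 h light and 16 h dark and a time of 4 h into the light period. Age was given as 5 days for every group, and the light-grown samples were also labelled 7 days after sowing. The sample labels and the series text state different light intensities. Each group had 3 arrays, named biological replicates, of RNA from whole seedlings. Whether replicates came from separate cultures was not stated, and the p-values therefore reflect only how far these samples vary, which may be technical. No uninduced amiR-SNF4 seedlings and no other inducible line were among the samples, and no probe set named SNF4, so its level was not analysed here. The word silencing is used for amiR-SNF4 set against wild type under the same light condition, where effects of the line itself and of lost SNF4 cannot be told apart.

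The arrays were Affymetrix arrays read with GCOS, and all values below are log2(intensity + 16) after quantile normalization, where 4 is the lowest possible value. Fold changes on this scale understate the change of dim genes. Array medians of the deposited intensities ran from 39.4 to 99.5. After normalization, correlations between arrays of a group lay between 0.961 and 0.986. Detection calls were not used here. Of the 48 members, 22 had mean normalized intensities under 50 in all 4 groups, against 40.0% of all genes. Photosynthesis markers of green tissue (4 of 12 measured, all far above the floor on every array) had a summed intensity of 13270 to 14000 in light-grown and 6854 to 9754 in dark-grown wild type. In amiR-SNF4 it was 9668 to 10310 in light, where 2 of the 4 were called lower than in wild type, and 2500 to 4022 in darkness, where all 4 were. Between light and darkness the 4 did not all move the same way. In wild type 2 were called higher in light and 1, LHCB4.2, lower (-2.06 ± 0.23). In amiR-SNF4 3 were called higher in light and LHCB4.2 lower (-0.93 ± 0.23). Root markers (5 of 8 measured) had sums of 4830 to 6240 in dark-grown wild type and 4537 to 6872 in dark-grown amiR-SNF4. In light the sums were 5484 to 7138 in wild type and 4460 to 4747 in amiR-SNF4, without overlap. In amiR-SNF4, 1 root marker was called higher and 2 lower in darkness, and 1 lower in light (AT4G26010, -2.78 ± 0.16). Seed reserve markers (3 of 7) summed to between 2742 and 5197 in dark-grown and between 14.8 and 90.3 in light-grown seedlings of both genotypes. Of these, ICL, an enzyme that turns stored lipid into sugar precursors, was called higher in light-grown amiR-SNF4 (1.3 ± 0.37, adjusted p = 0.0244), and none was called in darkness. None of 5 markers of etiolated seedlings was among the genes measured. In RNA of whole seedlings, fewer cells of a type and less RNA per cell cannot be told apart. The part of the lower green-tissue signal and of the other marker differences of amiR-SNF4 in the results below was not tested.

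In darkness, silencing went with higher transcript levels of 21 of the 48 TIR-class genes (43.8%) and a lower level of 1 (limma, Benjamini-Hochberg adjusted p under 0.05 over all 13356 genes). Over all genes, 14.3% were called higher and 16.5% lower, 30.8% in all. The median log2 difference of the 48 was 0.43, beside -0.03 for all genes, and 37 of the 48 lay above 0. In 22 members all 3 amiR-SNF4 arrays exceeded all 3 wild-type arrays, and in 2 all lay below, where 17.2% and 19.9% of all genes did so. Among the 48, the leading rises belonged to short members without leucine-rich repeats and to a single full-length receptor, AT5G58120. The probe set shared by AT5G41740 and AT5G41750, full-length genes outside the 48, rose by 2.51 ± 0.19 and is described further on.

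AT1G57630, a short TIR gene, showed the largest rise of the 48 in darkness. Its 3 wild-type arrays read 5.21, 4.99 and 4.91 and its amiR-SNF4 arrays 8.51, 9.59 and 9.57. The first amiR-SNF4 array was about a unit below the others, and the genotypes did not overlap. The rise was 18.2-fold (4.18 ± 0.37 on the log2 scale, SE, n = 3 arrays per group, adjusted p = 1.65e-06).

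AT2G20142, a TIR-only gene, had the smallest adjusted p of the 48 measured members. Wild-type arrays read 5.28, 5.57 and 5.45 in darkness, and amiR-SNF4 arrays 8.47, 8.62 and 8.67. All arrays of a genotype lay close together, and the difference was 3.15 ± 0.14 (adjusted p = 3.93e-09).

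AT1G72900, a short gene of the chromosome 1 group described further on, read 5.34, 5.24 and 5.82 on the dark-grown wild-type arrays. The matching amiR-SNF4 arrays read 8.23, 7.85 and 8.14, a 6.09-fold rise (2.61 ± 0.17, adjusted p = 9.91e-08). The spread within each genotype was well under the gap between them.

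AT1G66090, a TIR-NBS gene, read 5.83, 5.04 and 5.35 in wild type and 8.82, 8.05 and 8.35 in amiR-SNF4, both in darkness. Arrays of both genotypes varied by about the same amount and stayed apart. The rise was 7.98-fold (2.996 ± 0.23, adjusted p = 4.29e-07).

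AT2G32140, another short TIR gene, read 4.80, 5.43 and 4.82 in dark-grown wild type and 7.08, 6.95 and 6.97 in dark-grown amiR-SNF4. The second wild-type array was the highest of its group, still below every amiR-SNF4 array. The difference was 1.99 ± 0.18 (adjusted p = 2.14e-06).

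Among the full-length receptors, AT5G58120 stood first in darkness. The locus is known as DM10, a gene of hybrid incompatibility between accessions. It read 4.22, 4.74 and 4.63 in wild type, near the floor of the scale, and 7.73, 7.47 and 7.27 in amiR-SNF4. The genotypes were far apart relative to the spread, with a 7.79-fold rise (2.96 ± 0.17, adjusted p = 4.36e-08) that is understated because the wild type is dim.

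**Figure D1:**
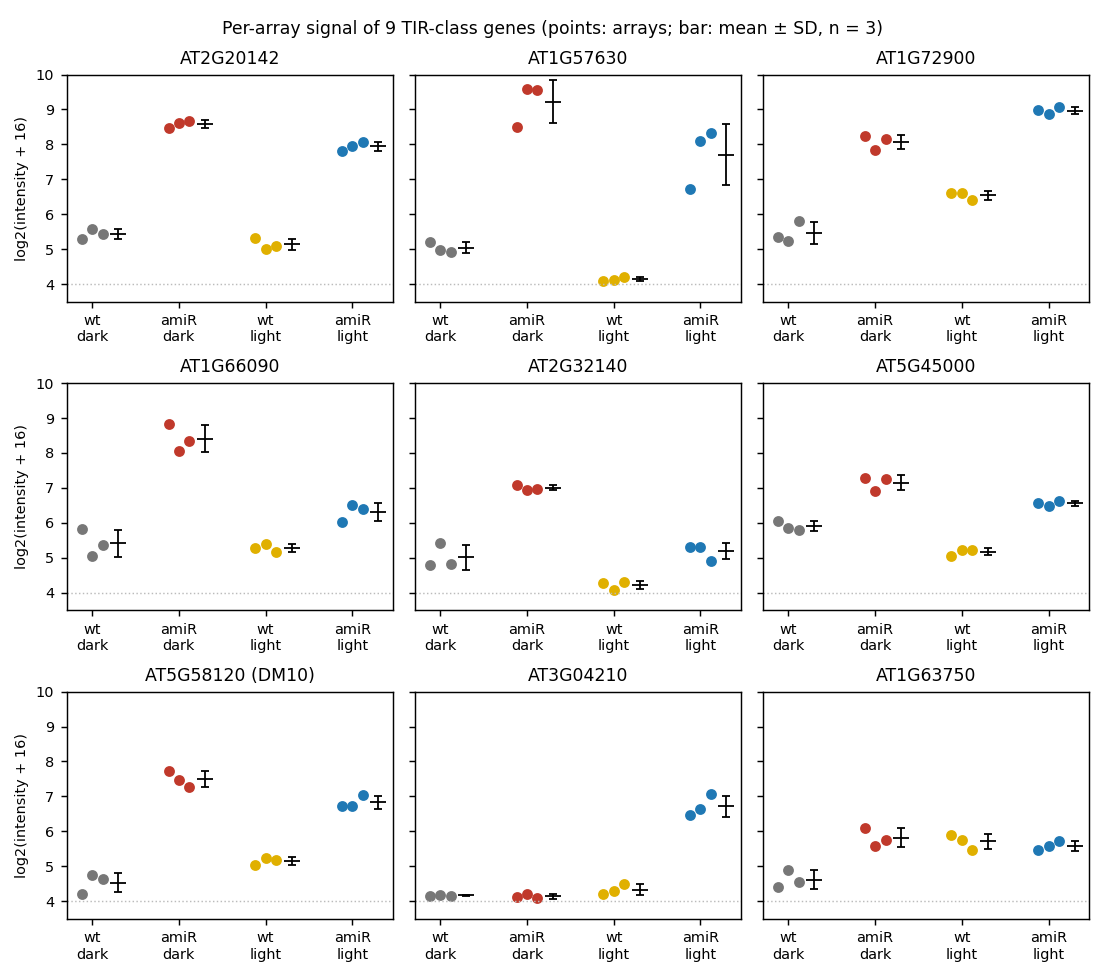
Signal of 9 TIR-class genes on each array, as log2(intensity + 16) on the y axis, for wild type (wt) and amiR-SNF4 (amiR) in darkness and light on the x axis. Points are arrays, bars are the mean ± SD of 3 arrays, and the dotted line marks the floor of 4; AT3G04210 stays near that floor in every group except light-grown amiR-SNF4, where it reads 6.47 to 7.06.

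The other members that rose in darkness were more modest. Among short genes, AT1G17615 (TN2, a TIR-NBS protein needed for the autoimmunity of exo70B1 mutants) rose 5.24-fold, from arrays of 4.29, 4.04 and 4.11 to 7.05, 6.22 and 6.34 (2.39 ± 0.22). AT1G72940 rose by 1.68 ± 0.21, AT1G72890 by 1.27 ± 0.18, AT5G45000 by 1.25 ± 0.14 and AT1G72920 by 1.17 ± 0.14. All 5 had adjusted p-values of at most 0.000112.

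Among full-length receptors, AT3G44630, a relative of the downy mildew resistance gene RPP1, rose by 1.49 ± 0.18. Rises of between 1 and 1.3 on the log2 scale were those of AT2G17060 (1.29 ± 0.18), AT1G63750 (1.19 ± 0.18), AT5G38340 (1.17 ± 0.20) and AT1G69550 (1.14 ± 0.19). AT2G16870 (0.98 ± 0.24), AT1G63740 (0.85 ± 0.22), AT5G36930 (0.80 ± 0.19) and AT3G04220 (0.58 ± 0.15) rose by less than a doubling. AT5G18360 (0.68 ± 0.21, adjusted p = 0.0245) was the weakest call. It was lost without wild-type array 2 (adjusted p = 0.103) or 3 (0.0614), or without amiR-SNF4 array 1 (0.0915) or 3 (0.0522). It was also lost without between-array normalization (0.0921), under hybridization control scaling (0.0531), with 1 added in place of 16 (0.0562) and with the dark groups fitted alone (0.0615). The call of AT3G04220 was lost without normalization between arrays (adjusted p = 0.0671) and with scaling to the hybridization controls (0.0522).

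The only member that fell in darkness was AT1G72840, a full-length gene. Its wild-type arrays read 6.27, 5.81 and 6.17 and its amiR-SNF4 arrays 5.13, 5.70 and 4.95. The second amiR-SNF4 array came within 0.2 of the lowest wild-type array, and the groups did not overlap. The fall was -0.83 ± 0.20 (adjusted p = 0.00630), a call that was lost both without between-array normalization (0.0994) and under scaling to the hybridization controls (0.0930).

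In light, silencing went with higher levels of 21 of the 48 genes as well (43.8%), and no member was called lower by limma. Over all genes 9.14% were called higher and 9.95% lower, 19.1% in all. At an unadjusted p under 0.05, 24 members were higher and 0 lower, where 1755 and 2236 of all 13356 genes were. No alternative setting called a member lower in light. The median log2 difference was 0.44, beside -0.03 for all genes. In 25 members the 3 amiR-SNF4 arrays all exceeded the 3 wild-type arrays and in 0 they all lay below, where 17.6% and 22.8% of all genes did so.

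AT2G20142 again had the smallest adjusted p. Light-grown wild type read 5.31, 5.02 and 5.08 and light-grown amiR-SNF4 7.82, 7.95 and 8.07. The gap between the genotypes was many times the spread, at 2.81 ± 0.14 or 7.01-fold (adjusted p = 2.20e-08).

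AT3G04210, a TIR-NBS gene, was second in light. Wild-type arrays read 4.2, 4.29 and 4.50 and amiR-SNF4 arrays 6.47, 6.64 and 7.06. The genotypes were clearly apart, with a 5.25-fold rise (2.39 ± 0.15, adjusted p = 2.34e-07).

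AT1G72900 read 6.61, 6.62 and 6.39 in light-grown wild type and 8.98, 8.87 and 9.06 in light-grown amiR-SNF4. The arrays of each genotype lay close together, against a rise of 2.43 ± 0.17 (5.39-fold, adjusted p = 4.09e-07).

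AT1G57630 read 4.10, 4.12 and 4.21 in light-grown wild type, at the floor of the scale, and 6.71, 8.09 and 8.33 in amiR-SNF4. The first amiR-SNF4 array was again the lowest of its group. The rise was 11.8-fold (3.57 ± 0.37, adjusted p = 1.51e-05), a value held down by the added 16.

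In darkness AT5G45000, a short TIR gene, read 6.06, 5.85 and 5.8 in wild type and 7.29, 6.90 and 7.26 in amiR-SNF4. It read 5.06, 5.23 and 5.22 in light-grown wild type and 6.58, 6.48 and 6.62 in amiR-SNF4. The genotypes were apart in both conditions, and in light it rose by 1.39 ± 0.14 (adjusted p = 1.35e-05).

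AT5G58120 (DM10) read 5.03, 5.24 and 5.19 in light-grown wild type and 6.73, 6.72 and 7.03 in amiR-SNF4. The rise was 1.67 ± 0.17 (3.19-fold, adjusted p = 1.48e-05), with no overlap between genotypes.

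The remaining calls in light were AT1G72940 (1.94 ± 0.21), AT3G44630 (1.51 ± 0.18), TN2 (AT1G17615, 1.28 ± 0.22), AT1G72920 (1.11 ± 0.14), AT5G38340 (1.09 ± 0.20), AT3G04220 (1.09 ± 0.15), AT1G66090 (1.04 ± 0.23) and AT2G32140 (0.96 ± 0.18). Smaller rises were those of AT1G31540 (0.83 ± 0.19), AT1G72890 (0.79 ± 0.18), AT5G36930 (0.79 ± 0.19) and AT5G11250 (0.72 ± 0.15). AT1G31540 was dim, with light-grown wild-type arrays of 4.05, 4.06 and 4.10, at the floor, and a highest group mean intensity of 13.8. Its value ran from 0.26 to 3.07 over the alternatives, and its call held in each that tested it. AT5G11250 is known as BNT1, a receptor gene linked to hormone responses under stress.

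The 3 weakest calls in light were each lost when certain single arrays were left out. SOC3 (AT1G17600, a full-length receptor that acts with TN2 and CHS1, 0.98 ± 0.26, adjusted p = 0.0166) lost its call without wild-type array 2 (0.0565) or 3 (0.0551), or amiR-SNF4 array 1 (0.0667) or 3 (0.0810). AT1G69550 (0.72 ± 0.19, adjusted p = 0.0193) lost it without wild-type array 1 (0.0888) or amiR-SNF4 array 3 (0.0751), and without normalization between arrays (0.0742). AT3G44400 (1.1 ± 0.30, adjusted p = 0.0197), another RPP1 relative, lost it without wild-type array 1 (0.0628) or 2 (0.0665), or amiR-SNF4 array 2 (0.0702) or 3 (0.0594), and with 64 added in place of 16 (0.0604). Of the other calls in light, that of AT1G72890 was lost without between-array normalization (0.0535) and that of AT5G36930 with 1 added (0.118).

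**Figure D2:**
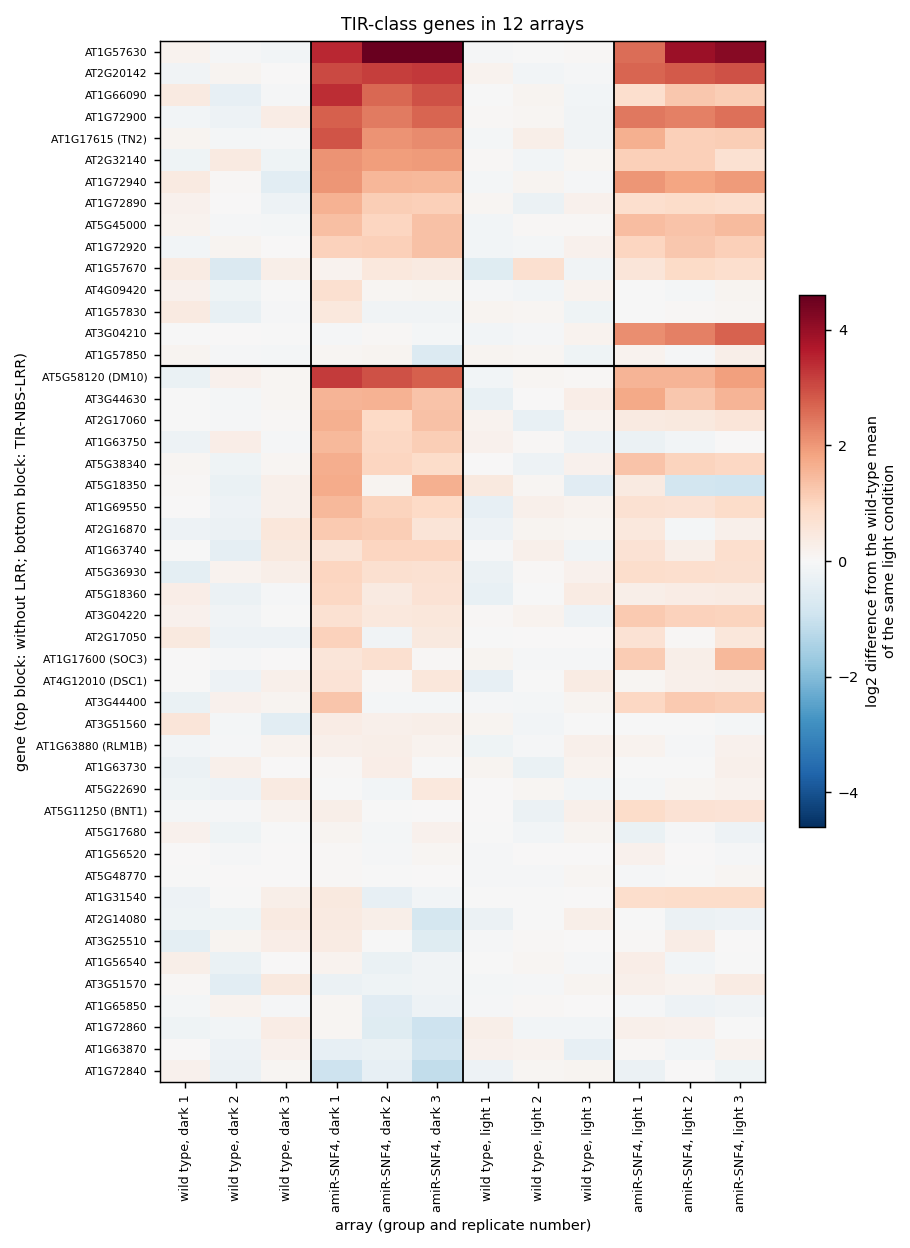
Signal of the 48 TIR-class genes (rows) on the 12 arrays (columns), as the log2 difference from the mean of the 3 wild-type arrays of the same light condition. Genes without LRR form the top block and TIR-NBS-LRR genes the bottom block, each ordered by the effect in darkness; red marks higher signal, and AT1G57630 heads the top block at 4.18 in darkness and 3.57 in light.

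The genes that rose in darkness and in light were largely shared. Of 21 members higher in darkness and 21 higher in light, 16 were called in both (76.2% of either list). Over all genes, 891 were higher in both, which is 46.6% of those higher in darkness and 73.0% of those higher in light. The comparisons in darkness and in light set different arrays against each other, but both used the same spread per gene, pooled over all 12 arrays. Among the 16, the rise was smaller in light for 12, and the matching count over all genes was not made. Of these genes, the difference itself was called only for AT1G66090, AT2G32140 and AT5G58120. The median difference of all 48 (light minus darkness) was -0.056, and 0.105 with scaling to the hybridization controls.

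Whether silencing acted differently in the light conditions was tested as a difference of the effects (light minus darkness). It was called for 5 of the 48 members, 1 larger in light and 4 larger in darkness, where 4.07% and 3.92% of all genes were called, 7.98% in all. Without amiR-SNF4 array 2 of darkness the count was 9. It was 3 without normalization between arrays and 3 with hybridization control scaling.

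AT3G04210 was the member with the larger effect in light. In darkness its wild-type arrays read 4.16, 4.18 and 4.16 and its amiR-SNF4 arrays 4.12, 4.21 and 4.09, so that both genotypes sat at the floor and overlapped. The effect in darkness was -0.03 (95% confidence interval -0.36 to 0.31), against the 2.39 in light given above. The difference was 2.42 ± 0.22 (adjusted p = 3.09e-05), and it was called in every alternative that was run, with values from 1.18 to 4.41; the extremes came with 64 and with 1 added in place of 16.

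AT1G66090 went the other way. Light-grown wild type read 5.27, 5.39 and 5.15 and light-grown amiR-SNF4 6.03, 6.50 and 6.39, so the genotypes stood apart in light too, though by less than in darkness. The difference was -1.96 ± 0.32 (adjusted p = 0.00212), and its call held in every alternative run.

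AT1G63750, a full-length gene, read 4.40, 4.91 and 4.55 in dark-grown wild type and 6.11, 5.58 and 5.75 in dark-grown amiR-SNF4. In light it read 5.90, 5.76 and 5.47 in wild type and 5.46, 5.57 and 5.73 in amiR-SNF4. Only the dark-grown wild type was low, and the genotypes overlapped in light (-0.12, 95% confidence interval -0.52 to 0.27). The difference was -1.32 ± 0.26 (adjusted p = 0.00635). It was not called under hybridization control scaling (0.0699).

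AT5G58120 (DM10) had a smaller rise in light than in darkness, by -1.29 ± 0.24 (adjusted p = 0.00512). This call was lost without normalization between arrays (0.0974) and with hybridization control scaling (0.264). AT2G32140 read 4.27, 4.09 and 4.30 in light-grown wild type and 5.31, 5.32 and 4.92 in amiR-SNF4, a smaller gap than in darkness. Its difference was -1.02 ± 0.25 (adjusted p = 0.0251). That call was lost without wild-type array 1 of darkness (adjusted p = 0.0556), wild-type array 1 (0.0592) or 3 (0.0643) of light, or amiR-SNF4 array 3 of light (0.0676). It was also lost without normalization between arrays (0.195), with hybridization control scaling (0.565), with array weights (0.0549) and with an added 1 in place of 16 (0.936), which moved the value from -1.02 to -0.14.

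For other members called in darkness or light alone, the difference was not called. It was -0.81 ± 0.26 for AT2G17060 (adjusted p = 0.0777), 0.85 ± 0.27 for AT1G31540 (0.0831) and 0.62 ± 0.22 for BNT1 (AT5G11250, 0.112). TN2 (AT1G17615) was called in both conditions, and its difference narrowly missed the threshold. That difference was -1.11 ± 0.32 (adjusted p = 0.0512, 95% interval -1.80 to -0.42). For AT2G20142 the difference was -0.34 with a 95% interval of -0.76 to 0.08, for AT1G72900 -0.18 (-0.69 to 0.34), for AT1G57630 -0.62 (-1.74 to 0.50) and for AT5G45000 0.14 (-0.29 to 0.57). These intervals leave room for moderate differences in AT1G57630 in particular.

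**Figure D3:**
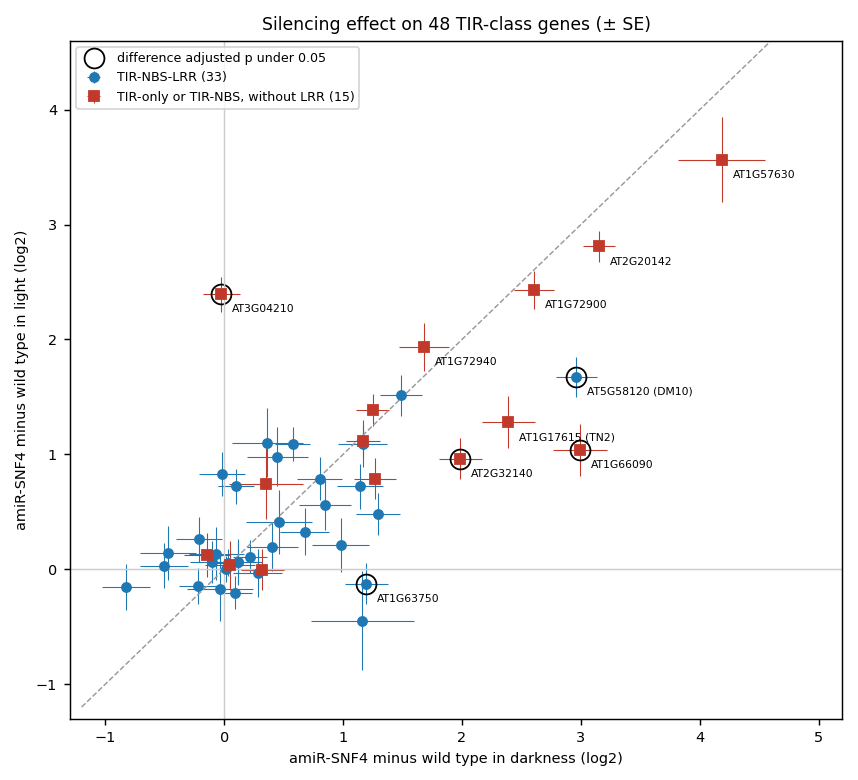
Log2 difference of amiR-SNF4 from wild type in darkness (x axis) and in light (y axis) for 48 TIR-class genes, with standard errors; the dashed line marks equal effects and black rings mark the 5 genes called for the difference. AT3G04210 lies at -0.03 in darkness and 2.39 in light, and AT1G66090 at 2.996 and 1.04.

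By architecture, as known for these loci, 15 members are short genes without leucine-rich repeats and 33 are TIR-NBS-LRR genes. Of the short genes, 10 rose in darkness and 11 in light (66.7% and 73.3%), with median log2 differences of 1.27 and 1.11. Of the full-length genes, 11 rose in darkness and 10 in light (33.3% and 30.3%), with medians of 0.28 and 0.20, and 1 fell in darkness. Over all genes, 14.3% were called higher in darkness and 9.14% in light. The classes also differed in brightness: 18 of the 33 full-length and 4 of the 15 short genes had intensities under 50 in all 4 groups. Over both classes, 7 of the 22 dim members and 20 of the 26 brighter ones were called in darkness or light. Over all genes, 11.4% of those as dim and 52.8% of the brighter ones were called in either. The part of brightness in the contrast between the classes was not tested.

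In all, 21 members were called in neither comparison of genotypes. They comprised 17 full-length genes, with differences of -0.51 to 1.16 in darkness and -0.45 to 0.41 in light, and 4 short genes, with -0.14 to 0.35 and -0.003 to 0.74. Among them were DSC1 (AT4G12010), a receptor behind the autoimmunity of camta3 mutants, at 0.40 ± 0.21 in darkness and 0.20 ± 0.21 in light, and RLM1B (AT1G63880), a gene of the blackleg resistance locus, at 0.22 ± 0.14 and 0.11 ± 0.14. AT5G18350 had the widest spread: dark-grown amiR-SNF4 arrays read 6.91, 5.33 and 6.83, against 5.26, 4.88 and 5.45 in wild type. One amiR-SNF4 array lay within the wild-type range, and its difference of 1.16 ± 0.43 did not pass (adjusted p = 0.0602).

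Members often lie beside each other, and neighbours did not always move together. On chromosome 1, AT1G72890, AT1G72900, AT1G72920 and AT1G72940 are short genes, and all 4 rose in darkness and in light, by 1.17 to 2.61 and by 0.79 to 2.43. AT1G72840 and AT1G72860, the full-length genes on one side of them, were at -0.83 and -0.48 in darkness and at -0.15 and 0.14 in light. AT1G57630 rose in both conditions, whereas its neighbour AT1G57670, also a short TIR gene, was at 0.35 ± 0.31 and 0.74 ± 0.31 and was called in neither. AT1G63740 and AT1G63750 rose in darkness while AT1G63730 was at 0.12 ± 0.18.

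TN2 and SOC3 lie on both sides of CHS1 (AT1G17610), a TIR-NBS gene that was not measured, and the 3 proteins are known to act together. TN2 was called in darkness and light, and SOC3 in light, a call that ended with some single arrays left out. The arrays of SOC3 read 4.12, 4.07 and 4.14 in dark-grown wild type and 4.66, 4.84 and 4.17 in dark-grown amiR-SNF4, all near the floor, and its 0.45 ± 0.26 in darkness did not pass (adjusted p = 0.225). In the gene table used for names, SOC3 and CHS1 overlap, so the probe set of SOC3 may read both.

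AT3G04210 and AT3G04220 are adjacent, the first a TIR-NBS gene and the second full-length. AT3G04220 read 6.49, 6.12 and 6.27 in dark-grown wild type and 6.99, 6.79 and 6.83 in dark-grown amiR-SNF4. In light it read 5.82, 5.92 and 5.52 and 6.94, 6.82 and 6.76. The genotypes were apart in both conditions, unlike those of AT3G04210, and the difference between its effects was 0.51 ± 0.21 (adjusted p = 0.175). In another pair, AT2G17060 rose in darkness while AT2G17050, at most 5.32 on any array, was at 0.46 ± 0.28.

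**Figure D4:**
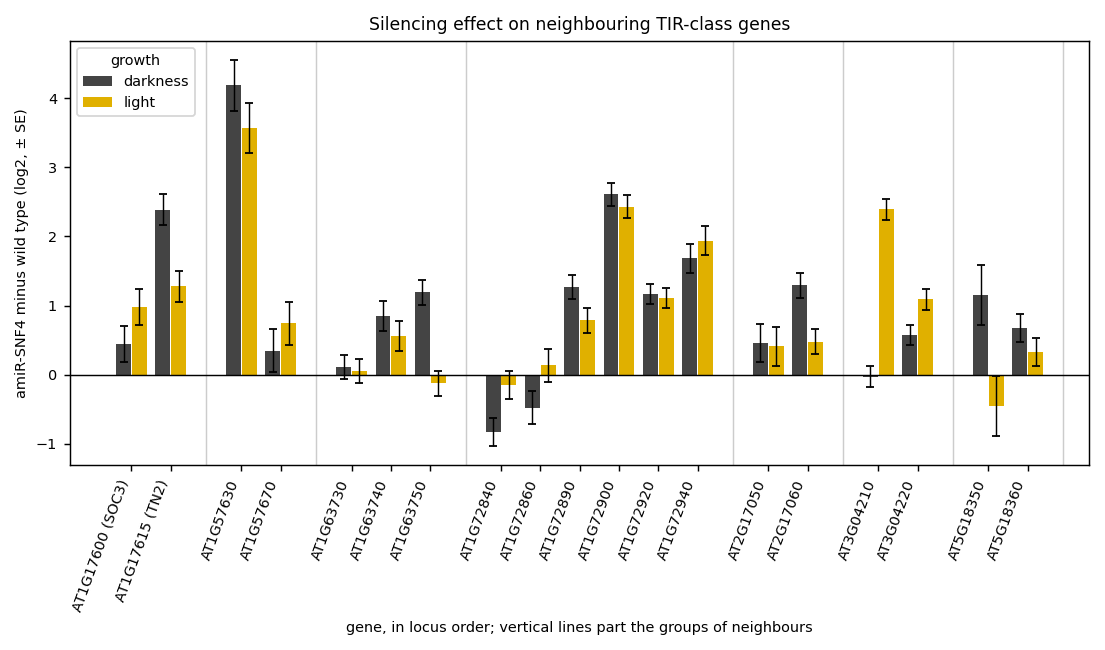
Log2 difference of amiR-SNF4 from wild type in darkness (dark bars) and light (yellow bars), with standard errors, for TIR-class genes that neighbour a called member, in locus order on the x axis. The 4 short genes from AT1G72890 to AT1G72940 are above 0 in both conditions, and AT3G04210 is high in light alone.

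Probe sets shared by 2 members were fitted with all 22746 non-control probe sets. The probe set of AT5G41740 and AT5G41750, full-length genes side by side on chromosome 5, read 5.57, 4.97 and 5.22 in dark-grown wild type and 8.10, 7.68 and 7.52 in dark-grown amiR-SNF4. In light it read 5.02, 5.34 and 4.98 in wild type and 6.53, 6.53 and 6.56 in amiR-SNF4. Genotypes were apart in both conditions, by 2.51 ± 0.19 in darkness (adjusted p = 2.09e-07) and 1.43 ± 0.19 in light (7.91e-05), and the effect was smaller in light (-1.09 ± 0.26, adjusted p = 0.0180). Which of the pair gave the signal cannot be told. The probe set of AT1G27170 and AT1G27180 was at 0.10 ± 0.18 in darkness and -0.04 ± 0.18 in light, and neither passed.

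Light-grown seedlings were also compared with dark-grown seedlings of the same genotype. Light-grown samples alone were labelled 7 days after sowing, and the measured seed reserve markers were far lower in them. Effects of light and of any difference in age or developmental stage cannot be told apart here. In wild type, 8 of 48 were higher and 3 lower in light, where 18.4% and 16.4% of all genes were called, 34.9% in all. In amiR-SNF4, 8 were higher and 12 lower, where 17.7% and 15.9% of all genes were, 33.6% in all. Scaling to the hybridization controls moved the median of all genes to 0.54 in wild type and 0.62 in amiR-SNF4. It gave 19 higher and 0 lower, and 28 higher and 4 lower, so directions here are relative to the bulk of genes. Without amiR-SNF4 array 1 of darkness the wild-type count was 17 in place of 11. These comparisons share arrays with those of the genotypes, and their contrast is the same difference as tested above.

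RLM1B (AT1G63880) was the clearest member that differed between light and dark growth while being called in neither genotype comparison. Dark-grown wild type read 6.10, 6.18 and 6.38 and light-grown wild type 7.37, 7.52 and 7.81. Dark-grown amiR-SNF4 read 6.45, 6.49 and 6.37 and light-grown amiR-SNF4 7.73, 7.52 and 7.77. Every light-grown array was above every dark-grown array, by 1.34 ± 0.14 in wild type (adjusted p = 1.50e-05) and 1.24 ± 0.14 in amiR-SNF4 (3.32e-05).

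AT1G72900 and AT1G72940 were also higher in light in both genotypes, at 1.07 ± 0.17 and 0.95 ± 0.21 in wild type and 0.90 ± 0.17 and 1.2 ± 0.21 in amiR-SNF4. AT5G45000 was lower in light by -0.73 ± 0.14 in wild type and -0.59 ± 0.14 in amiR-SNF4. Neither was called without between-array normalization (adjusted p = 0.140 and 0.417), and under hybridization control scaling the first was not called (0.410) and the second turned to 0.34. AT1G63750 was higher in light in wild type (1.09 ± 0.18) and at -0.22 ± 0.18 in amiR-SNF4 (adjusted p = 0.394). In all, 7 of the 48 members were called in the same direction in both genotypes, where 20.9% of all genes were.

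In amiR-SNF4, the 5 smallest adjusted p-values were those of RLM1B, given above, and of AT3G04210 (2.58 ± 0.15, higher in light), AT2G32140 (-1.82 ± 0.18), AT1G66090 (-2.10 ± 0.23) and AT2G17060 (-1.31 ± 0.18). For the latter 4 genes the wild-type values were 0.17 ± 0.15, -0.79 ± 0.18, -0.14 ± 0.23 and -0.50 ± 0.18. Of these 4 only AT2G32140 was called in wild type, and not under hybridization control scaling (adjusted p = 0.0542).

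**Figure D5:**
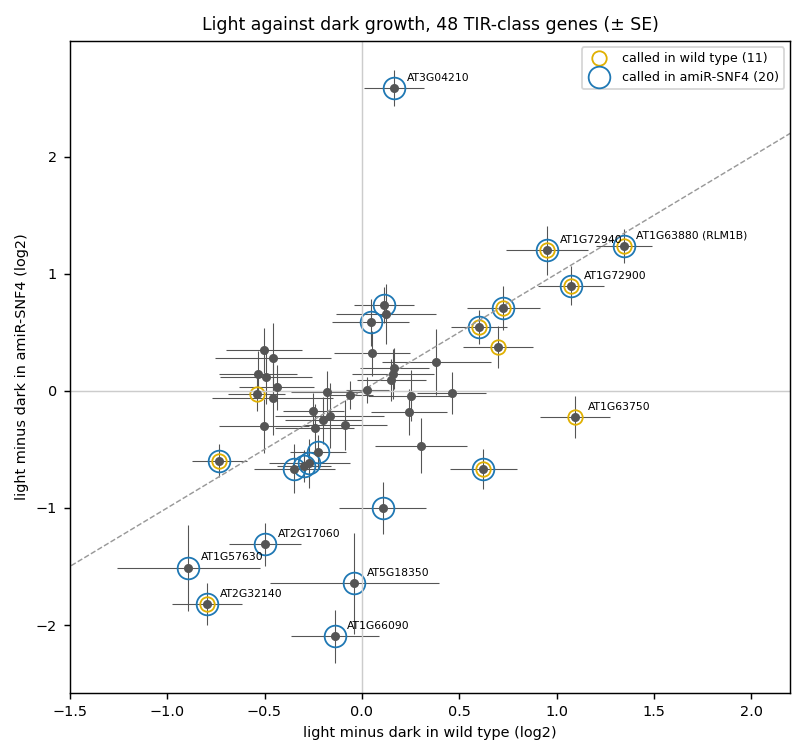
Log2 difference of light-grown from dark-grown seedlings in wild type (x axis) and amiR-SNF4 (y axis) for 48 TIR-class genes, with standard errors; small rings mark the 11 genes called in wild type and large rings the 20 called in amiR-SNF4, and the dashed line marks equal values. RLM1B (AT1G63880) lies at 1.34 and 1.24, and AT1G66090 at -0.14 and -2.10.

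Genes that act with these receptors were measured only in part, 5 of 22 listed. SAG101, the lipase-like partner of EDS1, rose by 3.70 ± 0.15 in darkness and 2.51 ± 0.15 in light. SGT1A, a co-chaperone of receptor proteins, rose by 1.12 ± 0.15 and 1.17 ± 0.15. AT3G48080, the second EDS1 gene of Columbia, rose by 1.98 ± 0.28 in light and was at 0.61 ± 0.28 in darkness (adjusted p = 0.121). The ubiquitin ligase genes AT1G14200 and AT5G01980, whose products limit receptor levels, were called in neither. Of the list, 2 of 5 rose in darkness and 3 in light (14.3% and 9.14% of all genes), with medians of 0.61 and 1.17 beside -0.03 and -0.03 for all genes.

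Immune receptor genes without a TIR domain were listed for comparison, and 27 of 55 were measured. In darkness 9 rose (33.3%, median 0.33) and in light 7 did (25.9%, median 0.18), and limma called none lower. At an unadjusted p under 0.05, 1 was lower in darkness and 1 in light, where 2874 and 2236 of all 13356 genes were. Over all genes, 14.3% were called higher and 16.5% lower in darkness, and 9.14% and 9.95% in light. AT5G66890, beside the helper receptor genes NRG1.1 and NRG1.2, rose by 1.96 ± 0.16 in darkness and was at 0.06 ± 0.16 in light (difference -1.89 ± 0.23, adjusted p = 0.000307). AT5G45510 rose by 1.58 ± 0.24 in darkness and 1.55 ± 0.24 in light, and AT4G14610 by 0.90 ± 0.19 and 1.41 ± 0.19. AT1G59780 rose by 1.47 ± 0.27 and 0.98 ± 0.27, and AT5G47250 by 0.77 ± 0.21 and 1.12 ± 0.21. Whether the TIR class moved more often than this list was not tested.

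Of 25 listed genes of salicylic acid synthesis and response, 4 were measured. All 4 rose in darkness and 3 in light, where 14.3% and 9.14% of all genes did. Examples are UGT76B1, a glycosyltransferase of the salicylate pathway (2.32 ± 0.28 in darkness and 3.58 ± 0.28 in light), and the glutaredoxin gene GRX480 (2.68 ± 0.16 and 2.00 ± 0.16). SARD4 (AT5G52810), of pipecolate synthesis, rose by 2.23 ± 0.18 and 2.36 ± 0.18. Of 10 genes of the small RNA pathways that can act on receptor transcripts, SE alone was measured, at 0.31 ± 0.17 in darkness and 0.09 ± 0.17 in light.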

How the data were processed

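RNA of 12 whole-seedling samples in 4 groups of 3 was measured on Affymetrix arrays. Each probe set has 1 deposited intensity, not log-transformed, and per the submitters' processing notes GCOS was used; its scaling is not given in the sources used here. The 22746 non-control probe sets (64 controls set aside) were quantile-normalized across arrays as log2 values, and 16 was added to each deposited intensity, once normalized, before the log2 values used here were formed. Probe sets were named from the platform annotation: 13513 named 1 gene, 503 several and 8730 none here. The gene table of the TAIR10.1 assembly gave locus numbers for 13286 of the 13356 genes and was used for names and neighbours only. Where a gene had more than 1 such probe set, the brightest by its mean over the arrays stood for it.

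All arrays were fitted with limma 3.58.1 (lmFit and eBayes) in R 4.3.3, with 1 coefficient per group and 5 contrasts. Calls are at a Benjamini-Hochberg adjusted p under 0.05 over all genes. The spread of a gene was pooled over the groups, which gives its effects equal errors in both conditions; the median SD within groups over all genes was 0.261 in darkness and 0.173 in light. An exact permutation test of 3 against 3 arrays cannot go below p = 0.1 and was not used. Precision is limited by the number of arrays, and the fit was tested on simulated data for the comparison in darkness. It recovered 74% of 100 changes of 1 on the log2 scale and 98% of 100 changes of 2, and 12 unchanged genes were called. Far fewer genes changed in the simulation than the 4113 called in darkness. Because the adjustment depends on that number, the recovered shares need not hold for the real comparison.

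The members and lists were chosen with earlier results of these data known. Genes named with values are members called for either genotype comparison or for the difference, the 5 smallest adjusted p-values of each light comparison, neighbours within 50 locus numbers of a called member, and, per genotype comparison, up to 3 called genes from each list, taken by adjusted p. SE and the ubiquitin ligase genes AT1G14200 and AT5G01980 were not called and are named in addition, as measured members of short lists. Values on every array are given for members called for the difference and for the 6 smallest adjusted p-values in darkness and in light. TN2, AT1G72840, SOC3, AT5G18350, AT3G04220, AT1G31540, DSC1 and RLM1B were given in more detail after their values were seen. Architecture classes and the names TN2, SOC3, DM10, DSC1, BNT1 and RLM1B come from general knowledge of these loci.

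Replicate numbers did not pair the arrays. Alternatives covered scaling, the added constant, a filter on dim genes (intensity of at least 50 on 3 arrays), the probe set rule, the groups fitted, array weights, a trended robust fit, the replicate block and each array left out.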

Additional observations from a re-analysis of the deposited data

Results flagged for a closer look

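The effect of silencing differed between darkness and light by the interaction test for 5 members. On the log2 scale, light minus darkness, the difference was 2.42 for AT3G04210, -1.96 for AT1G66090, -1.32 for AT1G63750, -1.29 for AT5G58120 and -1.02 for AT2G32140. The array values and the settings that end each call stand with these genes above. Of the 4 negative differences, that of AT1G66090 alone was called in every alternative run, with values from -2.17 to -1.53.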

How the results depend on the processing

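For silencing in darkness and in light, the counts of called members stayed within 1.5 times under every alternative run: 16 to 24 against 22 in darkness and 17 to 23 against 21 in light. With single arrays left out they ranged from 21 to 24 and from 18 to 22. The count for the difference (5) became 3 without normalization between arrays and 3 with hybridization control scaling, and 4 to 9 with single arrays left out. For light against darkness in wild type (11), hybridization control scaling gave 19, and single arrays left out gave 11 to 17. In amiR-SNF4 (20), no normalization gave 13, hybridization control scaling 32, and single arrays left out 16 to 21. Under hybridization control scaling, 6 called values for light against darkness changed sign: AT3G04220 in wild type (0.18), and AT2G20142 (0.31), AT5G17680 (0.18), AT5G18360 (0.19), AT5G45000 (0.34) and AT5G58120 (0.29) in amiR-SNF4; that scaling moves the median of all genes up by over 0.5. No called value of the genotype comparisons or of the difference changed sign. Without normalization, calls over all genes fell from 4113 to 2282 in darkness, from 2550 to 1486 in light and from 1066 to 278 for the difference. With only the groups compared in the fit, calls over all genes were 2961 in darkness and 3542 in light. Which condition had more calls over all genes therefore depended on pooling the spread.

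Replicate numbers are shared by the groups, but of 18 pairs of same-numbered arrays 4 had deviations correlated above 0.1 (range -0.33 to 0.20), and 3 of 12 arrays matched their own number best. With the replicate block, 23 members were called in darkness, 21 in light, 6 for the difference, 12 for light against darkness in wild type and 19 in amiR-SNF4. Testing all non-control probe sets, an alternative chosen after seeing the data, gave 23, 21, 6, 13 and 20. Signal over background limits the 22 dim members, for which a missing call says little.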
